A study of Mus musculus with 4 samples.

Results

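Cytosolic ribosomal protein genes were compared between lungs of bleomycin-treated and PBS-treated mice. They were chosen by name, as genes called Rpl or Rps followed by a digit together with Rplp0, Rplp1, Rplp2 and Rpsa, leaving out the ribosomal S6 kinases (Rps6k) and names marked as pseudogenes. The pattern took 87 of the 17691 genes in the table, and 83 of them averaged 1 FPKM or more across the 4 libraries. FPKM is the number of sequenced fragments per gene, scaled to transcript length and to the library total. Of the 83 genes, 50 carry large-subunit (Rpl) names and 33 small-subunit (Rps or Rpsa) names. By function, 77 encode the ribosomal proteins found in most cells, 46 of the large and 31 of the small subunit. Another 5 are near copies (paralogs), Rpl7l1, Rpl22l1, Rpl36al, Rps27l and Rpl37rt, and Rps19bp1 encodes a protein that binds RPS19 and is no part of the ribosome. The 4 names below the minimum were Rpl10l, Rpl32l, Rpl3l and Rpl39l, with means of 0.025, 0.145, 0.15 and 0.245 FPKM, while the lowest gene above it, Rps19bp1, had a mean of 11.8 FPKM.

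All mice were wild-type C57BL/6, 6 to 8 weeks old, and were given either PBS, a buffer, or bleomycin, which cuts DNA and is a common way to injure and scar the mouse lung. Both were given by the nose, and treatment ran for 10 days. RNA of whole lung was sequenced, and 2 PBS and 2 bleomycin libraries were used. The series set out to follow genes of metabolism in the injured lung. Its design text speaks of triplicates and its protocol of 4 groups of mice, whereas 2 groups of 2 libraries were analysed here. The labels do not say that each library came from a separate animal or from a pool, so p-values measure only the spread between these libraries, which may be technical. The groups also differed in Y-linked genes, which only male animals carry, and the labels used here give no sex. Eif2s3y was at 26.4 and 28.9 FPKM after PBS and is listed at 0 in both bleomycin libraries, and Ddx3y was at 17.6 and 15.2 FPKM after PBS and 0.01 and 0.02 FPKM after bleomycin. Uty and Kdm5d were likewise at 3.28 to 4.38 FPKM after PBS and at 0.01 FPKM or less after bleomycin. In every comparison below, treatment and the sex of the animals therefore cannot be told apart.

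The cytosolic ribosome is built from a large and a small subunit, each made of ribosomal RNA and of a set of proteins, most of them needed in equal number. Messenger RNAs of the ribosomal proteins are therefore held at similar and very high levels in dividing and resting cells, and most carry a short run of pyrimidines at their 5′ end, through which growth signalling by mTORC1 sets how well they are translated rather than how much of them is made. Surplus RPL5 and RPL11, bound to 5S ribosomal RNA, can hold back MDM2 and so raise p53. In the lung, as in other tissues, these transcripts come from every cell type.

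The starts of the genes to which the results return are shown with the 60 bases before the annotated start and the first 20 bases of the transcript, 5′ to 3′, from RefSeq on GRCm38.p6. They comprise Rps27l with its partner Rps27, whose ratio differed between the groups, Rpl22l1, whose ratio to Rpl22 did too, and Rps2, the ribosomal protein of the common set with the largest difference. Capitals mark CTTTCC or CCGGAAG on either strand, and TATAAA on the sense strand 40 to 20 bases before the start.
Rps27l (chr9:66946026-66946105, plus strand): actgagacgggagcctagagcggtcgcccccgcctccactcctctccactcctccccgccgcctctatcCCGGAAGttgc
Rps27 (chr3:90213629-90213708, minus strand): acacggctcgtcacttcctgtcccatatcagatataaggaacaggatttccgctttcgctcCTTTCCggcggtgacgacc
Rpl22l1 (chr3:28805448-28805527, plus strand): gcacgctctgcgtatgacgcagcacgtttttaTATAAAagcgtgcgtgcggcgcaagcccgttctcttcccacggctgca
Rps2 (chr17:24720003-24720082, plus strand): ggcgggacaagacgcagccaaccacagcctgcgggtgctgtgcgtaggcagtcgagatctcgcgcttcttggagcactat

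Rps27 holds CTTTCC, a pyrimidine run of the kind described above, just after its start, and the letters are not in the stretch shown for Rps27l. Other pyrimidine runs were not searched for and are unmarked, such as ttctcttccc just after the start of Rpl22l1. CTTTCC lies on the sense strand within 25 bases of the start in 2.92% of the 27025 genes of the promoter table. Rps27l has CCGGAAG, the core recognised by ETS-family factors, after the start shown. In 9.93% of genes the motif lies on either strand of a window of 300 bases around the start. Rps27l has another annotated start (chr9:66946353-66946432), not shown, whose stretch holds none of the marked motifs. Rpl22l1 has TATAAA, the TATA box core, which 2.40% of genes hold in the same place. These matches describe the letters only. Promoters were found for 63 of the 83 genes, 75.9%, which is under the 80% needed to read a share over the family, so none is given.

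Ribosomal protein transcripts were among the most abundant of the lung, taking 39 of the 100 and 67 of the 200 genes with the highest mean FPKM. Their median mean level was 485 FPKM, against 11.0 FPKM over the 12986 genes at or above the minimum. Rpl41, which encodes the smallest ribosomal protein, was highest with a mean of 1198 FPKM, followed by Rplp1, Rpl13a, Rpl23a, Rps23 and Rpl10. FPKM depends on the transcript length used to scale it. Rps15a, at a mean of 35.2 FPKM, Rps20, at 84.7 FPKM, and Rpl22, at 97.5 FPKM, have matched transcripts of 5179, 3706 and 2051 bases, against a median of 832 bases over the 82 members with a length. Depth, read from the size of the smallest increments in low FPKM values, was 17000000 to 17800000 fragments per library. At that depth a member was covered by 149 to 18839 fragments in a library, with a median of 7432, and counting error alone would give a median coefficient of variation of 1.16%. The estimate rests on annotated lengths and covers counting error only.

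The share of the transcripts that the family took differed less between the groups than between the 2 PBS libraries. The 83 genes together took 8.26% of summed FPKM in PBS library 1, 9.38% in PBS library 2, 9.02% in bleomycin library 1 and 9.25% in bleomycin library 2. The group means were 8.82% ± 0.796 after PBS and 9.13% ± 0.165 after bleomycin (SD, n = 2 each), and both bleomycin values lay between the PBS values. Large-subunit names took 4.85% and 5.49% after PBS and 5.32% and 5.46% after bleomycin. Small-subunit names took 3.40% and 3.90% after PBS and 3.69% and 3.79% after bleomycin. The ratio of the large-subunit to the small-subunit sum was nearly the same in the 4 libraries, at 1.43, 1.41, 1.44 and 1.44.

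The share is relative to other abundant genes, which differed between the groups. Scgb1a1, the secretoglobin of club cells, alone took 11.2% and 8.35% of summed FPKM after PBS and 3.98% and 4.28% after bleomycin. With the 50 most abundant genes outside the family left out of the sum, the ribosomal protein share was 11.1% and 12.4% after PBS and 11.3% and 11.6% after bleomycin. The difference between the group means was 0.312 percentage points with all genes and −0.304 without those 50, so its direction depended on the genes in the total. An exact permutation test of 2 libraries against 2 cannot give a two-sided p below 0.333.

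**Figure D1:**
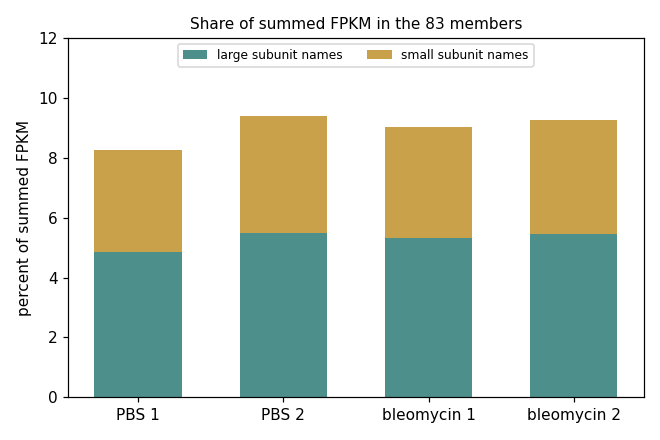
Share of summed FPKM, in percent, taken by the 83 ribosomal protein genes in each library, with large-subunit names below and small-subunit names above in each bar. PBS 1 is lowest at 8.26% and PBS 2 highest at 9.38%, with the bleomycin libraries between them.

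All members shared a direction of difference between the 2 PBS libraries. On the log2(FPKM + 1) scale, all 83 genes were higher in PBS library 2 than in PBS library 1, by a median of 0.19, from 0.00 for Rpl37 to 0.40 for Rps21. Over all genes tested the median of that difference was −0.01, and 5955 of the 12986 genes were higher in PBS library 2. Among genes outside the family averaging 100 FPKM or more, 446 of 645 were higher in PBS library 2. Between the bleomycin libraries the members' median difference, library 2 minus library 1, was −0.01, with Rps29 at −0.30 and Rps14 at 0.31 as its ends. Among the 77 common ribosomal proteins, PBS library 1 was the lowest of the 4 libraries for 45 genes and PBS library 2 the highest for 54. With every member higher in PBS library 2 than in PBS library 1, the former could not be the lowest nor the latter the highest for any gene. The highest and lowest libraries were not counted over all genes.

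The difference between PBS libraries was larger than the difference between group means for 59 of the 83 members, against 24.3% of all genes tested. For 36 members the bleomycin mean lay between the PBS libraries, a count that was not made over all genes. Rps21, a small-subunit protein, was one of the 59. It was at 342 and 451 FPKM after PBS and 348 and 329 FPKM after bleomycin, with PBS library 2 above the other 3 libraries. Genes outside the family with short transcripts had the same direction. Those with transcripts of at most 1000 bases had a median difference between PBS libraries of 0.09 (738 genes), those over 4000 bases −0.06 (4090 genes), and the 127 short genes averaging 100 FPKM or more 0.14. Members had 0.21 at up to 1000 bases (57 genes) and 0.18 above that (25 genes). The part of transcript length in the members' difference was not tested.

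**Figure D2:**
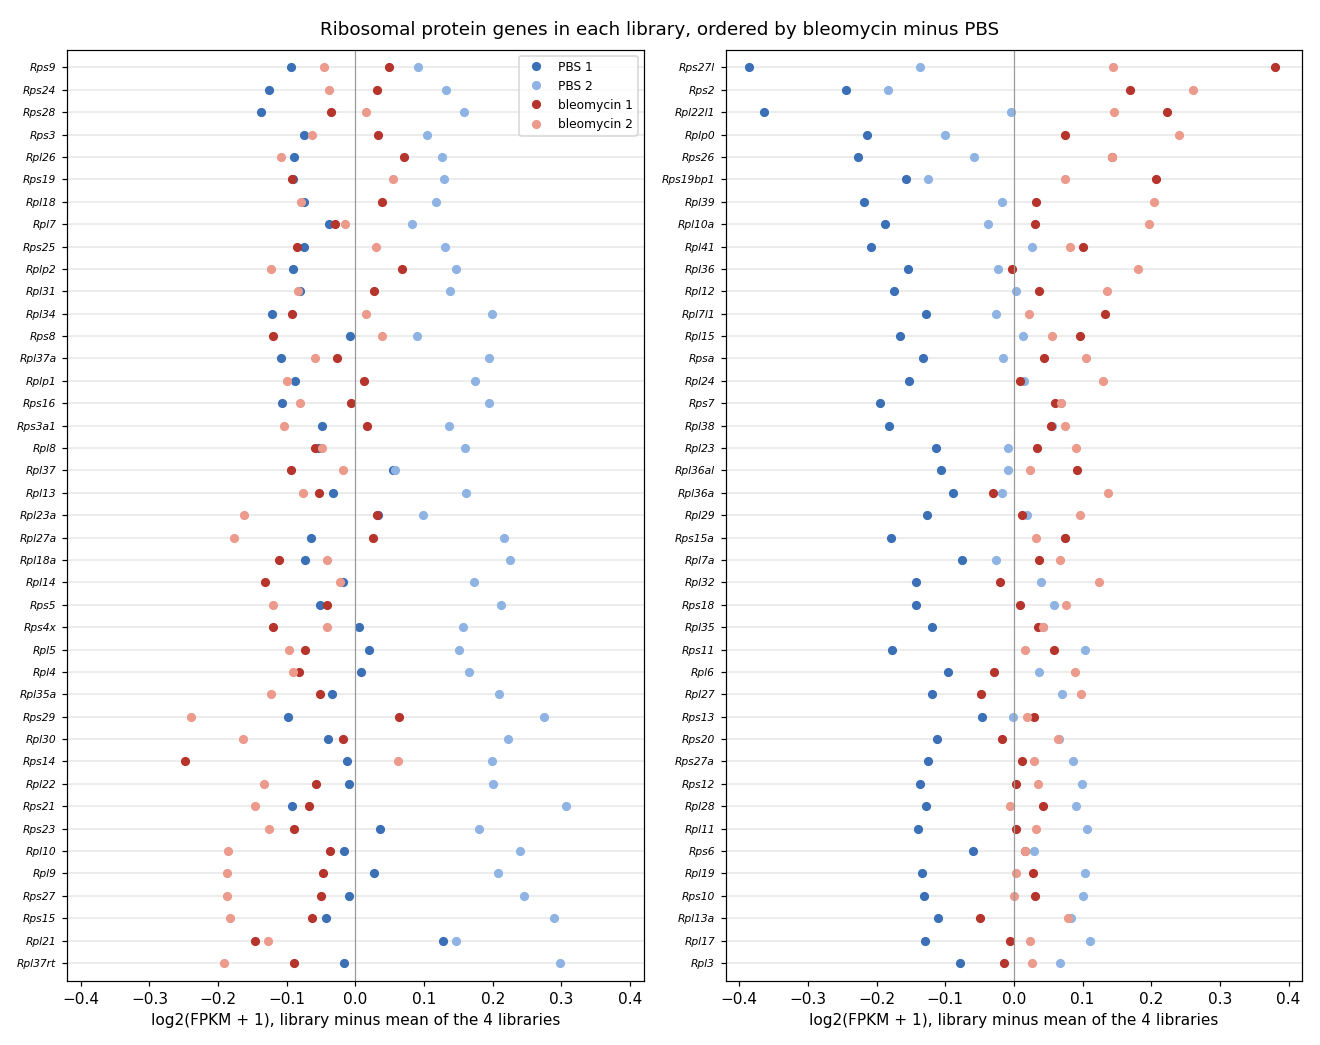
Of the 83 genes, 82 are drawn in each library, as log2(FPKM + 1) minus the gene's mean over the 4 libraries; genes run from the largest group difference (top of the right panel) to the smallest (bottom of the left panel). PBS 2 lies to the right of PBS 1 for all 82 genes drawn, by 0.00 to 0.40, and the groups overlap in 48 of them.

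No ribosomal protein gene passed the test. In limma's moderated test over 12986 genes with Benjamini-Hochberg adjustment, 0 of 83 members rose and 0 fell at an adjusted p under 0.05, whereas 16.3% of all genes tested did (1116 genes, 8.59%, rose and 998, 7.69%, fell). At an unadjusted p under 0.05, 3 members were higher after bleomycin (Rps27l, Rps2 and Rps19bp1) and 1 lower (Rpl21), against 35.3% of all genes, 17.2% higher and 18.1% lower. The bleomycin values did not overlap the PBS values in 34 members, 18 above and 16 below, while 66.5% of all genes had no overlap, 31.5% above and 35% below.

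The members' differences were also small. The median log2 difference, bleomycin minus PBS, was 0.01 over the members and −0.02 over all genes. It turned to −0.02 under quantile normalization and was 0.08 when FPKM was rescaled to TPM. Over the members the differences ran from −0.28 for Rpl37rt to 0.52 for Rps27l, and 95.2% lay within 0.3 of 0, against 60.9% of all genes. The 95% intervals from limma reached down to −0.68, for Rps15, and up to 0.87, for Rps27l, so none of the 83 held a change of 2-fold (1 on the log2 scale).

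The calls over all genes rested on both PBS libraries. Without either PBS library, with the lone one assumed to vary like the bleomycin libraries, 0 genes of the table passed. Without bleomycin library 1 there were 5485 calls, 2 of them members (Rps2 and Rps27l). Without bleomycin library 2 there were 4351, again with 2 members (Rps19bp1 and Rps27l).

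**Figure D3:**
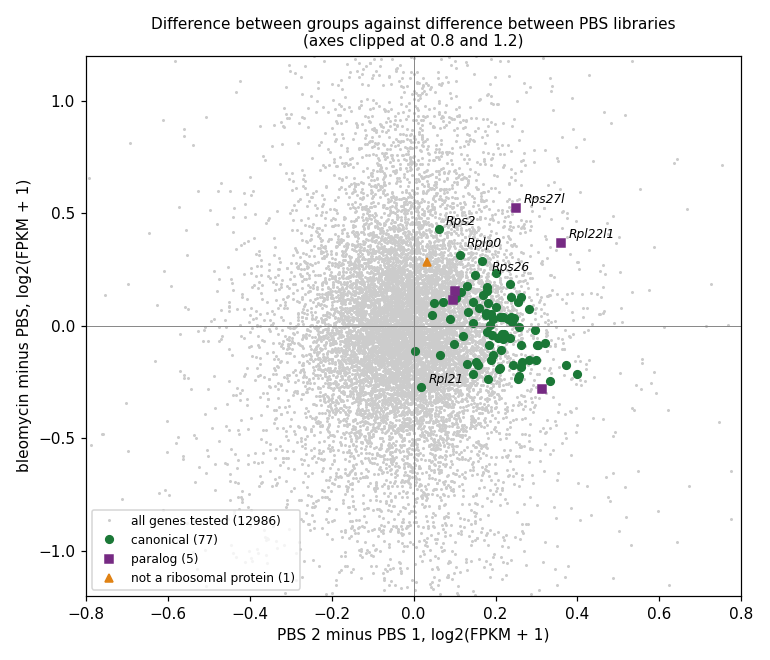
Difference between group means (vertical axis) against the difference between the PBS libraries (horizontal axis), both in log2(FPKM + 1); grey points are all 12986 genes tested, green circles the 77 common ribosomal proteins, purple squares the 5 paralogs and the orange triangle Rps19bp1. Members sit to the right of 0 and mostly within 0.3 of 0 vertically; grey points beyond the axis limits are not drawn.

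Among large-subunit proteins the stalk, which recruits the elongation factors, gave mixed values. Rplp0 (chr5:115559467-115563729), the base of the stalk, measured 495 and 536 FPKM after PBS and 604 and 678 FPKM after bleomycin. Both its bleomycin values were above the PBS values, and the difference of 0.31 ± 0.12 (SE) on the log2 scale did not pass (limma adjusted p = 0.150). Rplp1, its partner in the stalk, was at 1019 and 1223 FPKM after PBS and 1093 and 1011 FPKM after bleomycin, so its groups overlapped. Rpl41 was at 1033 and 1215 FPKM after PBS and 1281 and 1264 FPKM after bleomycin, without overlap but by no more than the gap between the PBS libraries (limma adjusted p = 0.434).

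Of the common large-subunit proteins, Rpl21 had the lowest difference. Rpl21 (chr5:146832890-146837032), a large-subunit protein, had close replicates, at 322 and 326 FPKM after PBS and 266 and 269 FPKM after bleomycin. Its difference was −0.27 ± 0.09 on the log2 scale, and it did not pass either (limma adjusted p = 0.107). Rpl9 and Rpl10, the latter a late-joining protein needed for a finished large subunit, had bleomycin values below both PBS values. Rpl9 measured 694 and 787 FPKM against 659 and 598 FPKM, and Rpl10 867 and 1036 FPKM against 855 and 771 FPKM. In Rpl10 the gap between the PBS libraries was wider than the gap between the groups. Rpl23a, at 973 and 1017 FPKM after PBS and 971 and 849 FPKM after bleomycin, was just apart, after PBS library 1 and bleomycin library 1 almost equal.

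The 5S particle proteins RPL5 and RPL11, which bind MDM2, did not share a pattern. Rpl5 was at 309 and 339 FPKM after PBS and 290 and 285 FPKM after bleomycin, below and without overlap (log2 difference −0.17 ± 0.10, limma adjusted p = 0.292). Rpl11 was at 628 and 746 FPKM after PBS and 694 and 708 FPKM after bleomycin, inside the PBS range. Rpl35a, mutated in some patients with Diamond-Blackfan anaemia, an inherited failure of red cell production, was at 541 and 640 FPKM after PBS and 534 and 508 FPKM after bleomycin, slightly below. Rpl38, needed for the translation of Hox messages in the mouse embryo, measured 346 and 408 FPKM after PBS and 407 and 413 FPKM after bleomycin and overlapped. Rpl13a, which also serves in a complex that silences inflammatory messages, was at 886 and 1013 FPKM after PBS and 924 and 1011 FPKM after bleomycin, within the PBS range.

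In the small subunit, Rps2 and Rps26 had the highest bleomycin values relative to PBS of the common proteins. Rps2 (chr17:24718121-24721927), a protein near the entry of the message channel, was at 594 and 619 FPKM after PBS and 791 and 843 FPKM after bleomycin. The group means were 606 ± 18.1 and 817 ± 36.7 FPKM (SD, n = 2 each), 1.35-fold apart, with a log2 difference of 0.43 ± 0.12 (limma adjusted p = 0.0722). Rps2 passed under quantile normalization (adjusted p = 0.0360), without the variance trend (adjusted p = 0.0497) and without bleomycin library 1 (adjusted p = 0.0390), and over all settings its limma adjusted p ran from 0.0360 to 0.374. Rps26 (chr10:128624529-128626506), a protein at the message exit channel, was at 355 and 398 FPKM after PBS and 458 and 458 FPKM after bleomycin (log2 difference 0.29 ± 0.11, limma adjusted p = 0.147).

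Rps15 and Rps23 stood lower after bleomycin. Rps15, a head protein, was at 830 and 1045 FPKM after PBS and 818 and 753 FPKM after bleomycin, and Rps23, a decoding-centre protein, at 951 and 1051 FPKM against 871 and 850 FPKM. In Rps15 the PBS libraries differed by more than the group means did. Of other genes mutated in Diamond-Blackfan anaemia, Rps19 was at 686 and 799 FPKM after PBS and 685 and 759 FPKM after bleomycin, and Rps24 at 486 and 581 FPKM against 542 and 515 FPKM. The groups overlapped in both genes.

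Rps14, the gene lost in the 5q- syndrome, was at 712 and 824 FPKM after PBS and 604 and 749 FPKM after bleomycin, with the widest gap of any member between the bleomycin libraries. Rps6, the substrate of S6 kinase, was at 474 and 505 FPKM after PBS and at 500.15 and 500.03 FPKM after bleomycin, the closest bleomycin pair of the family. Rps3, also a DNA repair factor, overlapped at 285 and 323 FPKM against 307 and 287 FPKM. Rpsa, also known as the laminin receptor, was at 389 and 422 FPKM after PBS and 440 and 459 FPKM after bleomycin, above and without overlap (log2 difference 0.15 ± 0.11, limma adjusted p = 0.370).

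The groups differed in Y-linked transcripts, with Eif2s3y at 26.4 and 28.9 FPKM after PBS but given as 0 for each bleomycin library, so treatment and the sex of the lungs cannot be told apart for any gene here. The 83 members lie on 19 chromosomes, with 14 on chromosome 7 and 4 on the X chromosome. The X-linked members did not share a direction. Rps4x had a log2 difference of −0.16 and Rpl10 of −0.22, while Rpl36a had 0.11 and Rpl39 0.24.

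Paralogs were set against their partners by a ratio taken within each library, which is free of library scaling. Of the 5 ratios, those of Rps27l and Rpl22l1 differed most between the groups. Rps27l (chr9:66944624-66949522) encodes a near copy of RPS27 and is known as a p53 target gene. It was at 66.2 and 78.8 FPKM after PBS and 113 and 96.0 FPKM after bleomycin, with means of 72.5 ± 8.97 and 105 ± 12.2 FPKM (SD, n = 2 each). Both bleomycin values were above the PBS values, 1.44-fold on the means. The log2 difference, 0.52 ± 0.13, was the largest of the family and just missed the threshold (limma adjusted p = 0.0633).

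Rps27l passed in limma fits under TPM rescaling (adjusted p = 0.0376), upper quartile scaling (0.0457) and scaling to the members' own median (0.0161), and without either bleomycin library (0.0240 without library 1 and 0.00460 without library 2). Over all settings its limma adjusted p ran from 0.00460 to 0.373. Rps27 itself (chr3:90212667-90213648) was at 739 and 882 FPKM after PBS and 718 and 653 FPKM after bleomycin. Rps27l was thus 8.95% and 8.94% of Rps27 in the PBS libraries and 15.8% and 14.7% in the bleomycin libraries. The log2 ratio was 0.77 higher after bleomycin, where the PBS libraries gave nearly the same ratio and the bleomycin libraries close ones.

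Rpl22l1 (chr3:28805508-28807424), the paralog of Rpl22, also differed between the groups in its ratio to its partner. RPL22 protein is known to lower Rpl22l1 RNA in the mouse. Rpl22l1 was at 78.2 and 101 FPKM after PBS and 118 and 112 FPKM after bleomycin (log2 difference 0.37 ± 0.14, limma adjusted p = 0.143). Rpl22 (chr4:152324436-152334082) was at 96.5 and 112 FPKM after PBS and 93.3 and 88.5 FPKM after bleomycin (log2 difference −0.19 ± 0.11, limma adjusted p = 0.264). Their ratio was 81.0% and 90.0% after PBS and 126% and 126% after bleomycin, 0.56 higher on the log2 scale. With PBS the paralog was the lower of the pair in FPKM, and after bleomycin the higher.

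The other ratios differed less. Rpl7l1, a nucleolar relative of RPL7 that takes part in ribosome assembly, was 4.93% and 4.87% of Rpl7 after PBS and 5.89% and 5.40% after bleomycin. Its groups did not overlap, with a log2 difference of 0.20. Rpl36al was 41.7% and 42.5% of Rpl36a after PBS and 46.0% and 39.0% after bleomycin, which overlapped. Rpl37rt, at 142 and 176 FPKM after PBS and 135 and 125 FPKM after bleomycin, was 101% and 125% of Rpl37 after PBS and 106% and 93.8% after bleomycin, also overlapping, and reads of such a close copy may be shared with Rpl37. With 5 ratios and 2 libraries per group, no exact permutation p can fall below 0.333, and no other test was run on the ratios.

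**Figure D4:**
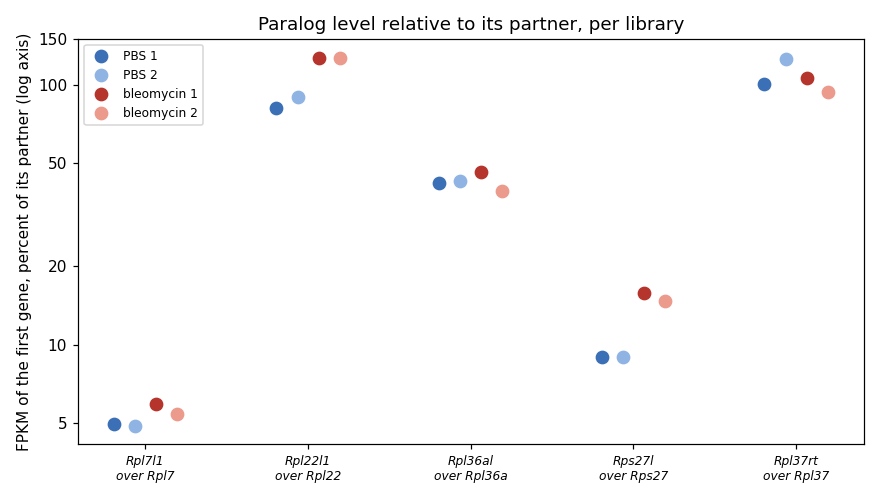
FPKM of each of 5 paralogs as a percent of its partner in each of the 4 libraries, on a log axis. Rps27l over Rps27 and Rpl22l1 over Rpl22 separate the groups most, from 8.95% and 8.94% to 15.8% and 14.7% and from 81.0% and 90.0% to 126%. Rpl7l1 over Rpl7 separates them by less, and Rpl36al and Rpl37rt overlap.

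Set against the median of the 77 common proteins in each library, which takes the shared shift of the family out, 35 members lay above and 22 below without overlap, and 26 overlapped. With the same values subtracted, 52.5% of all genes tested had no overlap, 28.4% above and 24.2% below. The median was taken from the members themselves, which brings their replicates together by construction. The members' counts therefore cannot be set against the share over all genes. The same value was subtracted from every gene of a library, so the order of the members' group differences could not change. Rps27l and Rps2 were 0.56 and 0.47 higher after bleomycin on this scale, and Rpl37rt and Rpl21 were at −0.24 each. Rpl11 and Rps24, whose groups overlapped in FPKM, did not overlap relative to the family median.

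Among genes that make or serve the ribosome, a few passed the test, in shares to be read against the 16.3% of all genes called (8.59% higher and 7.69% lower). Of 43 translation initiation genes tested, 6 rose and 0 fell, with a median log2 difference of 0.12. They included Eif1a, which helps the small subunit find the start codon, at 22.5 ± 0.594 FPKM after PBS and 39.1 ± 0.198 FPKM after bleomycin (SD, n = 2 each, limma adjusted p = 0.00979), and the 3 subunits of the factor that delivers the initiator tRNA. Those were Eif2s1 (0.50), Eif2s2 (0.54) and the X-linked Eif2s3x (0.76), as log2 differences, Eif2s3x being the gene whose Y-linked copy, Eif2s3y, was listed at 0 after bleomycin. Of 10 elongation genes, 2 rose, Eif5a (0.46, limma adjusted p = 0.0422), which relieves stalled ribosomes, and Eef1e1 (0.68), a partner of the tRNA synthetase complex. Eef1a1, the main tRNA-delivering elongation factor, overlapped at 2484 and 2726 FPKM after PBS and 2548 and 2718 FPKM after bleomycin.

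Of 101 ribosome biogenesis genes, 5 rose and 1 fell, a smaller share than the 16.3% of all genes, with a median of 0.07. The risers with the largest differences were Tsr1 (0.57), Nop58 (0.55), Pno1 (0.53) and Bysl (0.51). Tsr1, Pno1 and Bysl act in the making of the small subunit, and Nop58 is a core protein of the particles that methylate ribosomal RNA. The gene that fell was Sbds (−0.42), which readies the large subunit for use, an exception chosen after its values were seen. Of 77 mitochondrial ribosomal protein genes, 2 rose (Mrpl54, 0.44, and Mrpl52, 0.39) and 0 fell, again a smaller share than over all genes, with a median of 0.06. Of 19 chaperones and importins of ribosomal proteins, 0 passed limma's test and 4 had an unadjusted p under 0.05 (3 higher, 1 lower). The most abundant were Btf3 and Naca, which shield new chains at the ribosome, with log2 differences of 0.17 and −0.07. Of the proteins outside the naming rule, Fau was at 731 and 823 FPKM after PBS and 684 and 673 FPKM after bleomycin and did not pass (limma adjusted p = 0.330), nor did Rack1. Of these 2 genes, 0 had an unadjusted p under 0.05 in limma. Of 24 genes of ribosome quality control and turnover, 0 passed and 1 had an unadjusted p under 0.05 in limma, higher after bleomycin.

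The calls in these lists moved with the settings. With all 4 libraries kept, the initiation list had 3 to 8 calls over the settings, the biogenesis list 1 to 9, the elongation list 0 to 2 and the mitochondrial list 0 to 5. Without PBS library 1 or PBS library 2 each had 0 calls. With a bleomycin library left out, the calls over all genes rose, as given above. List counts from those fits, which rest on a lone bleomycin library, are therefore not read.

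Regulators upstream of ribosomal protein genes changed in both directions. Of 33 genes of MYC and mTORC1 control, 4 rose and 5 fell, beside 8.59% and 7.69% of all genes. Myc, which drives transcription of ribosome genes, rose from 4.11 ± 0.120 to 11.5 ± 0.940 FPKM (SD, n = 2 each, log2 difference 1.29, limma adjusted p = 0.00741), and the MYC antagonist Mxd3 rose by 1.47. Sesn1, an inhibitor of mTORC1, fell by 0.97 on the log2 scale, and its relative Sesn3 rose by 0.81, from low levels. The MYC antagonist Mxd4 and the mTORC1 inhibitor Tsc2, named after their values were seen, were among the others that fell. Calls in this list numbered 6 to 11 with 4 libraries, beside 1550 to 2616 over all genes. As for all genes, they rested on both PBS libraries.

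Of 10 tested genes of the 5S particle and p53 control, 6 rose and 1 fell, beside 8.59% and 7.69% of all genes. Cdkn1a, the p53 target that stops the cell cycle, rose from 49.6 ± 0.898 to 254 ± 26.8 FPKM (SD, n = 2 each, log2 difference 2.33 ± 0.10, limma adjusted p = 0.00416). The p53 targets Ccng1 (1.37), Eda2r (1.26) and Zmat3 (0.91) rose too. The median log2 difference of the 10 genes was 0.51, against −0.02 over all genes, and the list held 6 or 7 calls with all 4 libraries. These calls too rested on both PBS libraries. Rps27l, a target of the same factor, had the 0.52 given above. The list was drawn up knowing earlier results of these libraries and is no independent evidence of its direction.

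**Figure D5:**
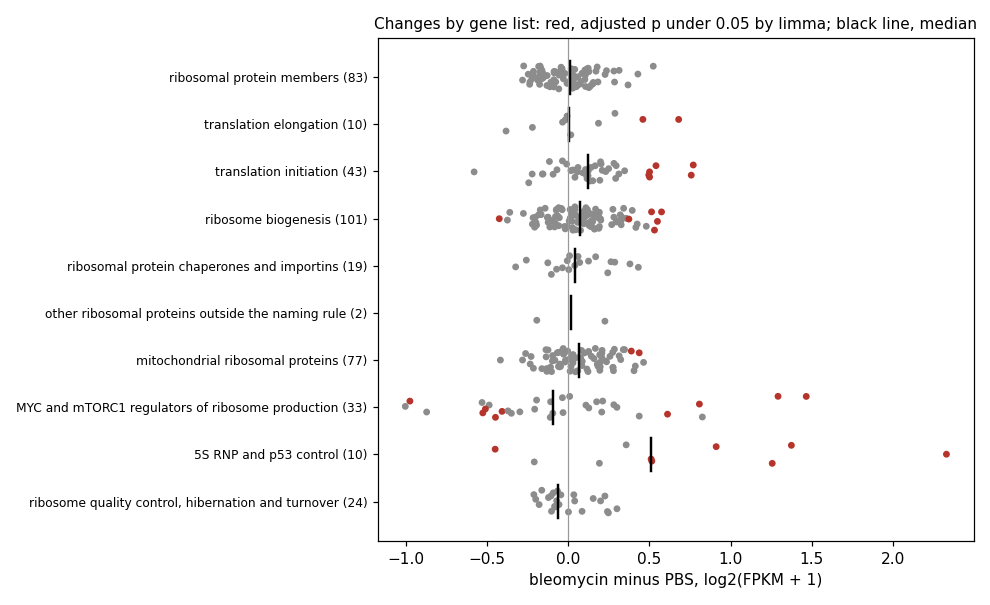
Log2 difference, bleomycin minus PBS, of every tested gene in the ribosomal protein family and in 9 lists of related genes; red points passed limma at an adjusted p under 0.05, black bars are medians, and vertical scatter within a row has no meaning. The 83 family members hold 0 red points, while the 5S particle and p53 list has 7 of 10.

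Markers of cell types of the lung, and of blood and liver cells, differed between the groups in the same libraries. In whole tissue, fewer cells of a type and less RNA per cell cannot be told apart. The counts below stand beside 8.59% of all genes that rose and 7.69% that fell. Of 9 cycling-cell markers 7 rose, their summed level being 83.7 and 88.7 FPKM after PBS and 174 and 145 FPKM after bleomycin, and of 8 macrophage markers 5 rose (420 and 510 FPKM against 616 and 1316 FPKM). All 8 hepatocyte markers fell (76.6 and 77.3 FPKM against 5.89 and 4.87 FPKM), as did all 5 erythroid markers tested (5184 and 6714 FPKM against 2249 and 1524 FPKM). Among resident lung cells, ciliated markers summed to 504 and 481 FPKM after PBS and 226 and 97.2 FPKM after bleomycin (1 of 6 fell), and endothelial markers to 1403 and 1480 FPKM against 1046 and 1008 FPKM (3 of 8 fell). Alveolar type I markers gave 4402 and 4665 FPKM against 3279 and 4519 FPKM (1 of 7 rose and 3 fell), and fibroblast markers 3010 and 3567 FPKM against 1597 and 1588 FPKM (4 of 8 rose and 3 fell). A sum follows its most abundant genes. The log2 differences of the fibroblast markers ran from −3.50 to 2.06 with a median of 0.34, so their lower sum does not describe the list. Of 5 club and secretory markers 2 fell, and of 6 smooth muscle and pericyte markers 2 rose. Of 7 B and plasma cell markers 1 rose, whereas 5 had log2 differences below 0, and the median of the 7 was −0.89. Of T and NK cell, dendritic and muscle markers 0 passed in limma, with 0, 2 (both lower after bleomycin) and 0 at an unadjusted p under 0.05. Neutrophil markers summed to 384 and 513 FPKM after PBS and 188 and 153 FPKM after bleomycin, with 4 of 6 falling. Alveolar type II markers, with Sftpc at 7913.38 to 12788.5 FPKM in all 4 libraries, were present as the lung label says, and 1 of 8 rose. The PBS libraries, between which the ribosomal proteins differed most, also differed in marker sums, in both directions. Higher in PBS library 2 were the erythroid, neutrophil, macrophage, fibroblast, endothelial, cycling, hepatocyte, alveolar type I and alveolar type II sums. Lower there were the club and secretory, ciliated, smooth muscle and pericyte, T and NK cell, B and plasma cell, dendritic and muscle sums. The part of these cell types in the values of the ribosomal protein genes was not tested.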

How the data were processed

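Each library's column of the deposited table holds FPKM rounded to 2 decimals, per the file headers. The submitters' processing notes name HISAT, Bowtie2, GRCm38 and mm10. How FPKM was computed, and with which versions, is not stated in the sources used here. FPKM is relative to each library's total, so abundant genes bear on all others. Of its rows, 17691 were used, among them 27 whose symbols a spreadsheet had made into dates and that were named again by transcript, while 1 nameless row, up to 0.000896% of a library, was dropped. The test was limma 3.58.1 under R 4.3.3 on log2(FPKM + 1), with lmFit and a trended eBayes, two-sided, for the 12986 genes averaging 1 FPKM or more, with Benjamini-Hochberg adjustment over all of them, a threshold of 0.05 and 2 residual and 2.76 prior degrees of freedom. Fold changes on this scale understate low genes. Depth per library was estimated at 17000000 to 17800000 fragments, with 75% to 78.1% of low values within 0.15 of a whole fragment, which is a loose fit, so no count test was run. The functions were tested on simulated data, with 200 of 12986 genes changed by 2-fold or 4-fold. Of the 2-fold changes 90% were called and of the 4-fold changes 99%, and 23 of the 212 calls were false. Smaller changes, such as those of the members, were not simulated. Gene positions come from the RefSeq gene table of GRCm38.p6, which all 87 names matched, transcript lengths from GENCODE, and plots from Python 3.11.15 with pandas 2.3.3, numpy 2.4.6 and matplotlib 3.10.9. Samples were grouped by title.

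The members and the lists were chosen with earlier results of these data known. Named are the 6 members with the largest and the 6 with the smallest difference, the 6 most abundant, paralogs with their partners, members with a known role outside the ribosome or in disease, and up to 4 called genes of each other list, or, where fewer than 2 passed, the 2 most abundant. Rps21, Rps29, Rps20, Rps15a, Rpl39, Rps4x, Eef1a1, Sbds, Mxd4 and Tsc2 lie outside that rule and were named after their values were seen. A few results are not reported here. Alternatives were other pseudocounts (0.1, 0.5), other minimums (none, 5 FPKM), other scalings (quantile, TPM, upper quartile, median of ratios), eBayes robust or without trend, a block for replicate number, each library left out in turn, the common proteins alone and, chosen after seeing the data, scaling to the members' median.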

Additional observations from a re-analysis of the deposited data

How the results depend on the processing

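No member fell under any setting. The count of members past the threshold, 0 as reported, was 1 under quantile normalization and without the variance trend (Rps2 in each), 1 under TPM rescaling, upper quartile scaling and scaling to the members' median (Rps27l in each), 0 under the other settings with 4 libraries, and 0 to 2 when a library was left out. Calls over all genes ran from 1550 to 2616 with 4 libraries and from 0 to 5485 when a library was left out. With the replicate number as a block there were 1641 calls and 0 members. The labels used here do not say whether the numbers pair the libraries. The deviations of same-numbered libraries correlated at 0.02 over all genes and −0.33 over the members. With 2 libraries per group these values cannot settle whether same-numbered libraries belong together. The members' median difference ran from −0.09 (without PBS library 1) to 0.10 (without PBS library 2), and the difference in share from −0.251 to 0.875 percentage points when a library was left out and to −0.304 without the 50 most abundant other genes. Of 528 log2 differences of 33 named members, 500 kept their direction and side of the threshold, 9 passed it and 19, in 8 genes, turned direction. Other minimums, the eBayes variants and the replicate block leave the log2 difference itself unchanged. Direction could not turn in those settings, so the 500 overstate how much was tried. Under TPM rescaling Rpl7 was 0.025, Rps19 0.031, Rps3 0.039 and Rps24 0.061. Rps24 was also 0.060 under quantile normalization, 0.0078 under upper quartile scaling and 0.015 under median-of-ratios scaling. With a library left out, the log2 differences ran from −0.22 to 0.044 for Rplp1, −0.068 to 0.12 for Rpl13a, −0.10 to 0.017 for Rpl7, −0.089 to 0.16 for Rpl11, −0.15 to 0.072 for Rps19, −0.14 to 0.12 for Rps24, −0.013 to 0.076 for Rps6 and −0.12 to 0.060 for Rps3. The cause of these changes was not tested. The log2 ratio of Rps27l to Rps27 stayed between 0.72 and 0.82 and that of Rpl22l1 to Rpl22 between 0.49 and 0.64 with a library left out. Depth limits the least covered members most, with Rps19bp1 at a counting error of up to 8.19%.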
